A study of Mus musculus with 10 samples.

Results

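The TAM receptors are the receptor tyrosine kinases Tyro3, Axl and Mertk, and the genes described here are these 3 together with the bridging ligands Gas6, Pros1 and Mfge8. The rule picks the genes by name, and each was read from the 1 probe set that the platform annotation gives its symbol. That made 6 genes of 24704 with a named probe set, and none was filtered out. The samples were Affymetrix arrays of the fenestrated capillary endothelium of the liver (liver sinusoidal endothelial cells, LSEC). The mice were C57BL/6N females, aged 10 weeks when the diets began. One group received for 10 weeks a diet labelled CDAA, with 31% of calories from fat and 1% cholesterol, and the other a control diet labelled Std. In liver research CDAA denotes a choline-deficient, amino acid-defined diet that causes steatohepatitis with fibrosis. Each diet had 5 arrays, named here CDAA 1 to CDAA 5 and Std 1 to Std 5, and each array held cells pooled from 3 mice and captured with magnetic beads against CD146. The mice carried no allele or treatment other than the diet per the labels; a duration field that reads 10 days disagrees with the titles and protocol and was not followed, and the series' design text speaks of Gata4 knockout mice, which no sample label names.

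Efferocytosis is the clearance of dying cells by phagocytes. A dying cell exposes phosphatidylserine on its outer membrane, and bridging proteins link that lipid to receptors on the engulfing cell. Gas6 and protein S, the product of Pros1, bind phosphatidylserine through domains rich in gamma-carboxyglutamate (Gla), which are made in a vitamin K-dependent step, and bind TAM receptors at their other end. MFG-E8, the product of Mfge8, binds phosphatidylserine as well but is recognised by alpha-v integrins rather than by TAM receptors. In the liver, Mertk and Axl are known mainly from macrophages, where they support engulfment and restrain inflammatory signalling, and Mertk is also expressed by sinusoidal endothelium, while protein S is made by hepatocytes and endothelium and circulates as an anticoagulant cofactor.

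For the 3 genes whose signal changed with the diet, the 250 bases before the transcription start are shown, since these are the stretches in which basic promoter elements of genes that moved in opposite directions can be compared. They are from RefSeq promoter entries of build GRCm38.p6, which held all 6 genes, and are written 5′ to 3′ on the strand of the gene.
Mertk, chr2:128698665-128698914, plus strand: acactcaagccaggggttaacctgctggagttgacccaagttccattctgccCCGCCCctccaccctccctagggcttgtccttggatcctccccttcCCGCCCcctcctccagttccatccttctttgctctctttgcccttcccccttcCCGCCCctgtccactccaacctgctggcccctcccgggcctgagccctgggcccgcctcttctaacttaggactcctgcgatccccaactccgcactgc
Pros1, chr16:62854057-62854306, plus strand: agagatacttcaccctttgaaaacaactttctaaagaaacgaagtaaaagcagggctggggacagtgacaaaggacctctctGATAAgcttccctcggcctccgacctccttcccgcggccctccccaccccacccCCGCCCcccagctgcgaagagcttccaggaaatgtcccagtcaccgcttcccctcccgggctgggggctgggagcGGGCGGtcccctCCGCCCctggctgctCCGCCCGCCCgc
Mfge8, chr7:79149061-79149310, minus strand: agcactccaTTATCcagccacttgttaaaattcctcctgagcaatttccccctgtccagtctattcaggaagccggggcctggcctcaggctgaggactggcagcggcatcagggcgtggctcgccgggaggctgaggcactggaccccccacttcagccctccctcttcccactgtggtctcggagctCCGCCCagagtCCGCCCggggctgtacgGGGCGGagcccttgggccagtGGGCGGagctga
Capitals mark matches, on either strand, to 4 letter patterns: the GC box GGGCGG, the AP-1 pattern TGANTCA, the GATA pattern GATAA and the nuclear receptor half-site AGGTCA. The GC box matched 3 times before Mertk, 5 times before Pros1 (with 1 overlapping pair) and 4 times before Mfge8, and it occurred in 32.7% of 32851 promoter entries of the same length. GATAA was found once before Pros1 and once before Mfge8, against 22.6% of entries. Neither TGANTCA (6.75% of entries) nor AGGTCA (14%) was found in the windows of the 6 genes. The gene that fell most and the gene that rose thus both had GC boxes. So did the 3 genes that did not pass, with 1 match before Axl, 3 before Tyro3 and 4 before Gas6. The windows had GC contents of 63.6% for Mertk, 64.4% for Pros1 and 65.2% for Mfge8, against a median of 52.4% for promoters. A match is a description of letters only.

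Among the arrays 3 stood apart: CDAA 1 and CDAA 3 had the lowest endothelial marker signal, and Std 3 carried neutrophil markers that the other Std arrays did not, so results are also given without them.

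The comparison asks whether the diet altered these receptors and ligands in the isolated cells. Mertk and Pros1 were lower with CDAA, Mfge8 was higher, and Axl, Tyro3 and Gas6 did not pass the test. Changes are given as CDAA minus Std in log2 units and were tested with limma over all genes at a Benjamini-Hochberg adjusted p of 0.05, and "rose" and "fell" are used only of genes past that threshold. By this test 3 of the 6 genes changed, 1 rising and 2 falling, whereas 16.6% of all genes tested changed (7.49% rose and 9.13% fell). The same 3 genes had values that did not overlap between diets, which was so for 13.9% of all genes. Both background shares include dim genes. With genes below the median left out, 4341 genes passed, against 4106 with all genes. The share past the threshold is thus higher among brighter genes, and all members except Tyro3 are among these. The gap between 3 of 6 and 16.6% is therefore not read as a result about these genes as a set. The median change of the 6 genes was -0.03, against -0.02 over all genes. In such bulk samples, fewer cells of a type and less RNA per cell cannot be told apart.

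**Figure D1:**
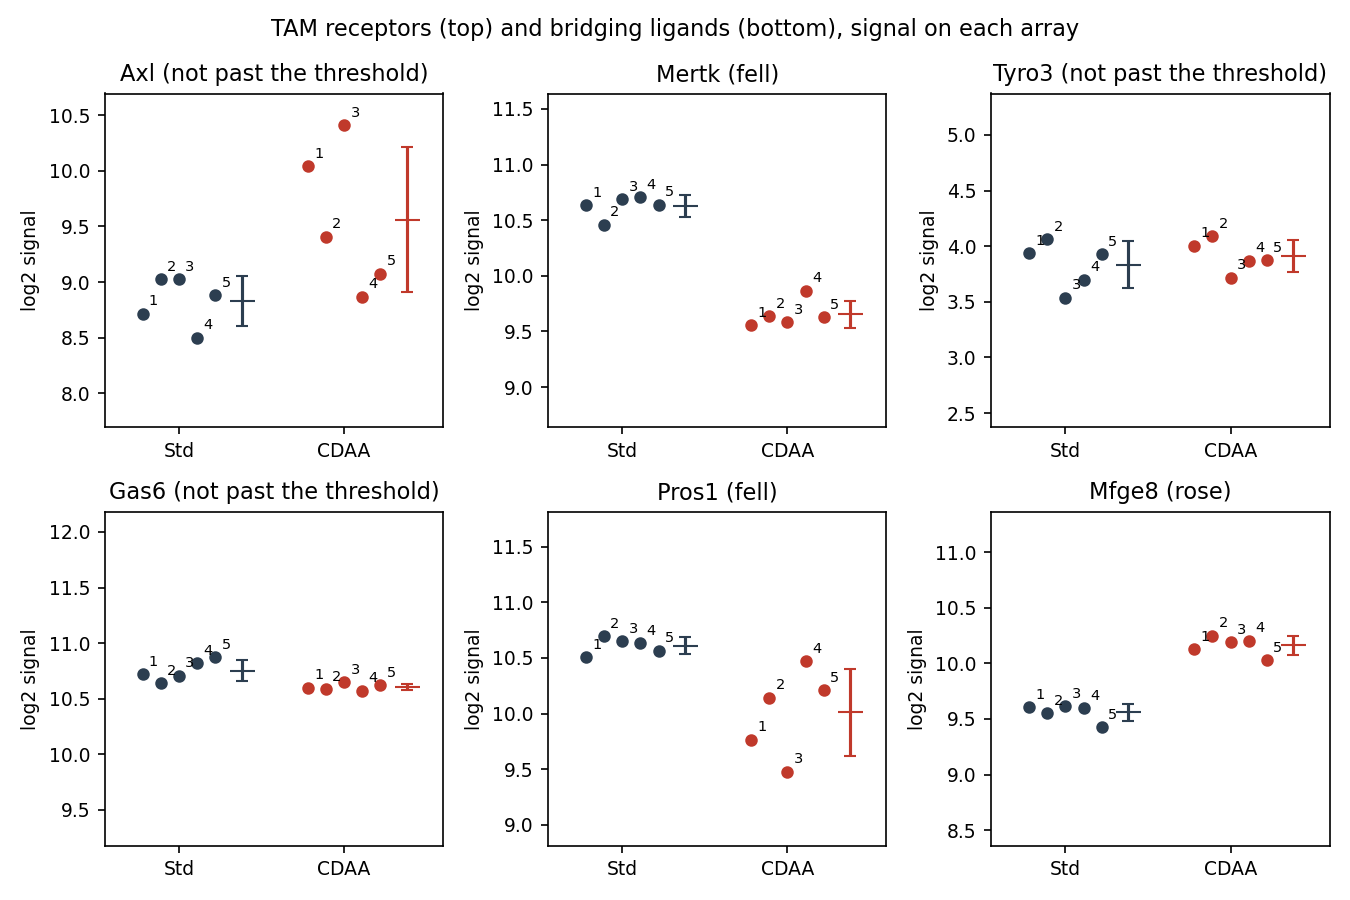
Log2 signal (y axis) of the 3 receptors (top) and 3 ligands (bottom) on each of 5 Std and 5 CDAA arrays, numbered by replicate, with bars for the mean ± SD of each diet; every panel spans the same number of log2 units. Mertk and Pros1 lay lower and Mfge8 higher on all 5 CDAA arrays than on any Std array, whereas Axl was spread widely with CDAA.

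The receptor Mertk, whose kinase links recognition of dying cells to engulfment, had the largest difference of the 6 genes. Its log2 signals (probe set 17289_at) were 9.55, 9.64, 9.58, 9.87 and 9.63 in CDAA 1 to 5, and 10.63, 10.46, 10.69, 10.71 and 10.64 in Std 1 to 5. The highest CDAA array, CDAA 4, was still below the lowest Std array, Std 2. On the log2 scale Mertk fell by 0.97, with an SE of 0.09 (limma adjusted p = 6.38e-05), or 1.96-fold, from 10.63 ± 0.10 to 9.65 ± 0.12 (SD, n = 5 per diet). Among genes past the threshold, 285 fell further. The difference was nearly as large without CDAA 1 and CDAA 3, at -0.92 (limma adjusted p = 0.000626), and without Std 3 as well, at -0.90. Leaving out any single array gave changes between -1.03 and -0.95, all past the threshold.

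Axl is the TAM receptor that binds Gas6 most tightly and is shed from the cell surface by metalloproteases. Its log2 signals (26362_at) were 10.04, 9.41, 10.41, 8.87 and 9.07 in CDAA 1 to 5 and 8.71, 9.03, 9.02, 8.50 and 8.88 in Std 1 to 5. CDAA 1 and CDAA 3 were the highest, CDAA 2 was also above every Std array and CDAA 5 just above, while CDAA 4 lay within the Std range. The mean was 9.56 ± 0.65 with CDAA and 8.83 ± 0.22 with Std (SD, n = 5 per diet), differing by 0.73 (95% interval 0.16 to 1.30), short of the threshold at a limma adjusted p of 0.0783. Without CDAA 4 the change was 0.90 and passed (limma adjusted p = 0.0232), but it was 0.29 without CDAA 1 and CDAA 3 (limma adjusted p = 0.305). Most of the mean difference for Axl thus came from these 2 arrays.

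Tyro3, the TAM receptor best known from the nervous system, gave signals of 4.01, 4.09, 3.72, 3.87 and 3.87 in CDAA 1 to 5 and of 3.94, 4.06, 3.54, 3.70 and 3.93 in Std 1 to 5 (22174_at). These lie around the median signal of an array, 3.89, and no detection call is used here, so they were not known to exceed background. The difference was 0.08 (95% interval -0.18 to 0.34; limma adjusted p = 0.737).

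Because the changes of Axl and Mertk had opposite signs, the difference between them was tested itself. In each array one gene's log2 signal was subtracted from the other's, and the 5 CDAA and 5 Std results were compared with a two-sided exact permutation test over all arrangements of the 10 arrays, whose smallest possible p is 0.00794; 3 receptor pairs and 3 ligand pairs made 6 tests. The change of Axl exceeded that of Mertk by 1.70 (exact permutation p = 0.00794, adjusted p = 0.0119), with no overlap between diets. Mertk also differed from Tyro3, by -1.05 (exact permutation p = 0.00794, adjusted p = 0.0119), while the change of Axl did not differ from that of Tyro3 at the threshold (0.65, exact permutation p = 0.0794, adjusted p = 0.0794). That last difference ranged from 0.39 (without CDAA 3, adjusted exact p = 0.159) to 0.82 (without CDAA 4, adjusted exact p = 0.0476) with single arrays left out, and also passed without Std 3 (0.77, adjusted exact p = 0.0190). Without CDAA 1 and CDAA 3 it was 0.17 (adjusted exact p = 0.357). Such differences show unequal change of signal and do not compare the levels of the receptors. Since Tyro3 was not known to exceed background, the pairs with Tyro3 cannot show whether its transcript changed by another amount than Mertk or Axl.

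Of the ligands, Gas6, which binds all 3 TAM receptors, did not pass the test. Its signals (14456_at) were 10.60, 10.59, 10.65, 10.57 and 10.62 in CDAA 1 to 5 and 10.72, 10.64, 10.71, 10.82 and 10.88 in Std 1 to 5. The CDAA arrays lay close together, and CDAA 3 was just above Std 2, the lowest Std array. The difference was -0.15 (95% interval -0.33 to 0.03; limma adjusted p = 0.267), and no array left out brought it past the threshold (-0.18 to -0.12).

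Pros1, encoding protein S, a ligand of Mertk and Tyro3, had signals (19128_at) of 9.76, 10.14, 9.48, 10.47 and 10.21 in CDAA 1 to 5 and of 10.51, 10.70, 10.65, 10.63 and 10.56 in Std 1 to 5. All CDAA arrays were below all Std arrays, but CDAA 4 only just so, and CDAA 3 and CDAA 1 were the lowest. Pros1 fell by 0.60 ± 0.16 (SE; limma adjusted p = 0.0247), 1.51-fold lower, from 10.61 ± 0.07 to 10.01 ± 0.39 (SD, n = 5 per diet). This call was lost without CDAA 1 (-0.54, limma adjusted p = 0.0628), without Std 2 (-0.58, limma adjusted p = 0.0546) or without Std 4 (-0.59, limma adjusted p = 0.0570), and without both CDAA 1 and CDAA 3 the change was -0.34 (limma adjusted p = 0.0729).

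Mfge8, the integrin-binding bridge, was the gene that rose. Its signals (17304_at) were 10.13, 10.25, 10.19, 10.21 and 10.03 in CDAA 1 to 5 and 9.61, 9.55, 9.62, 9.60 and 9.43 in Std 1 to 5. The groups were well separated and each was tight. Mfge8 rose by 0.60 ± 0.08 (SE; limma adjusted p = 0.000663), 1.52-fold higher, from 9.56 ± 0.08 to 10.16 ± 0.08 (SD, n = 5 per diet). Without CDAA 1 and CDAA 3 the change was again 0.60 (limma adjusted p = 0.00392), and it was 0.61 without Std 3 as well. It stayed between 0.57 and 0.63 when any single array was left out.

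In the pair tests the change of Mfge8 exceeded that of Pros1 by 1.20 and that of Gas6 by 0.75 (each exact permutation p = 0.00794, adjusted p = 0.0119). The change of Gas6 exceeded that of Pros1 by 0.45 (exact permutation p = 0.0397, adjusted p = 0.0476), but this did not pass when any single array other than CDAA 4 was left out, with differences of 0.31 to 0.57 over all single arrays left out. Without CDAA 1 and CDAA 3 the 56 arrangements left cannot give a p under 0.0357.

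**Figure D2:**
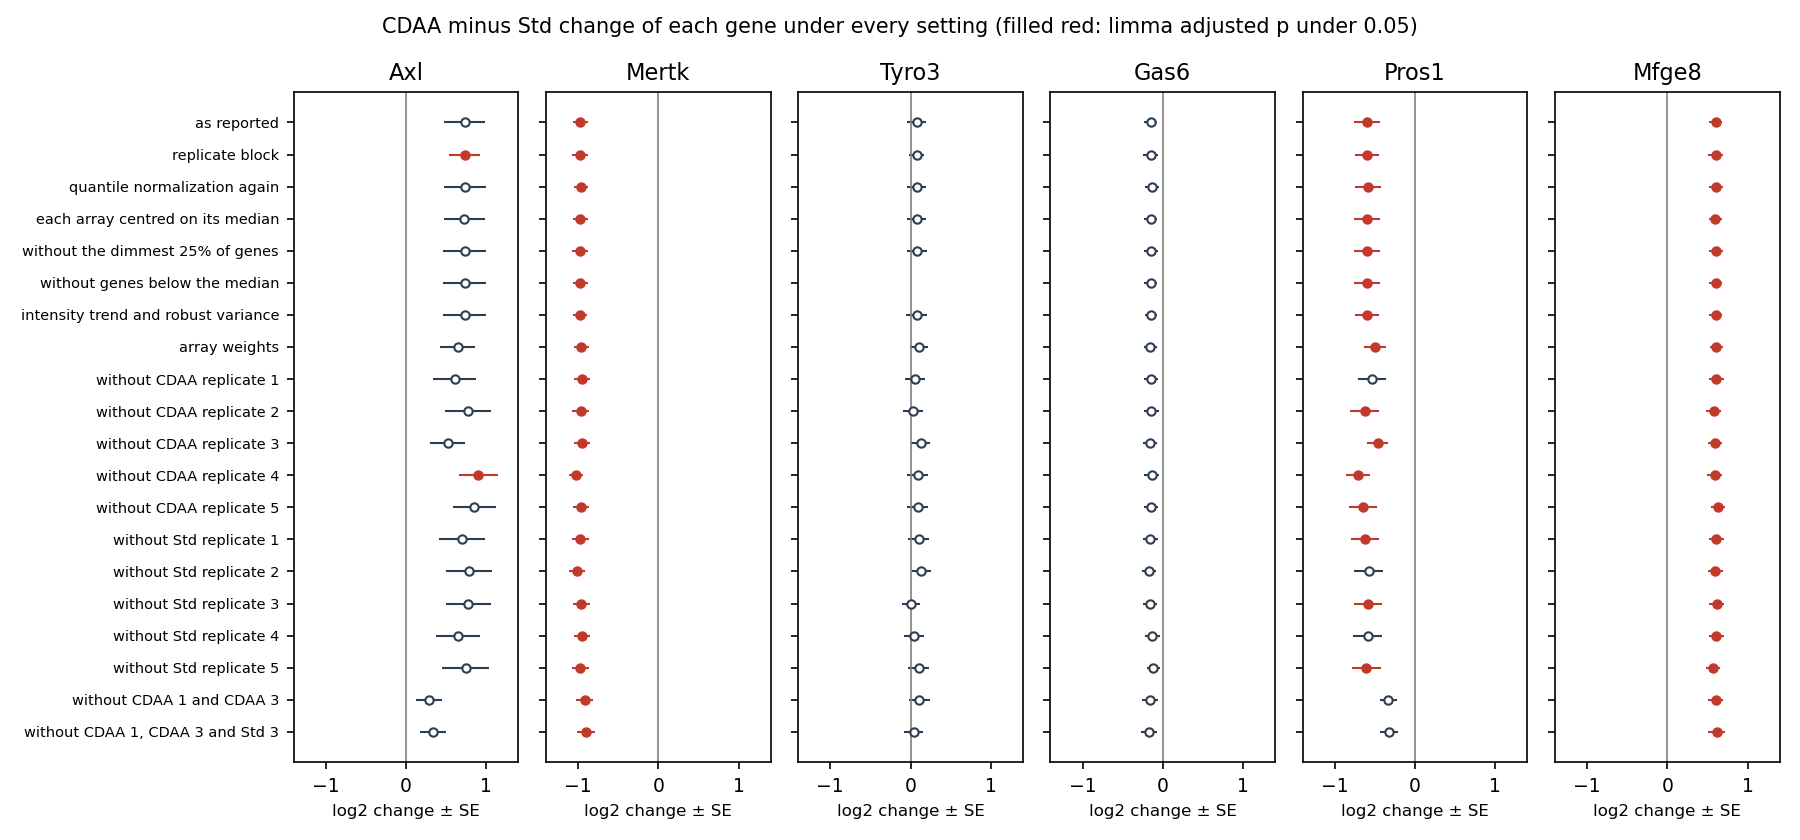
Change of each gene (x axis, CDAA minus Std in log2 units, ± SE) with all arrays and under 19 other settings (rows); filled red points had a limma adjusted p under 0.05. Mertk and Mfge8 were past the threshold in every row, Pros1 lost its call in 5 rows, and Axl gained one in 2; Tyro3 has no point where genes below the median were left out.

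Markers of other cells, and of endothelium itself, moved in the same arrays. The mean log2 signal of 12 pan-endothelial markers was 11.34 to 11.49 with Std and 10.05 to 11.13 with CDAA, lowest in CDAA 3 and CDAA 1 (10.44); 9 of the 12 fell, among them Cdh5, VE-cadherin, by 0.64, while Pecam1 (-0.47) did not pass. Without CDAA 1 and CDAA 3, 6 of the 12 fell (median change -0.37, against -0.69 with all arrays), as 6 did without CDAA 1, and 5 without Std 3 as well as CDAA 1 and CDAA 3. Of 11 LSEC markers 9 fell, among them the scavenger receptor Stab2, by 0.89, and the lectin Clec4g, by 0.64, so markers of the labelled cell type were read in both diets, at lower signal with CDAA. Without CDAA 1, or without CDAA 1, CDAA 3 and Std 3, 6 of the 11 fell. Clec4g ranked 3 or 4 from the top on each Std array, where the deposited scale fixes a value for each rank, so its change reflects ranks near the upper end. Clec4g lost its call when any Std array or CDAA 1 was left out (-0.65 to -0.57), as Cdh5 did without Std 4 (-0.63), and Pecam1 passed without CDAA 4 (-0.55). Kupffer cell markers averaged 8.44 to 9.49 with Std and 7.53 to 8.34 with CDAA, 6 of 9 falling, with Clec4f and Vsig4 each down by 1.14. Recruited macrophage markers averaged 4.95 to 5.78 with Std and 7.84 to 9.13 with CDAA, 8 of 9 rising, among them Trem2 (3.70) and Gpnmb (7.31). Gpnmb was 9.76 to 11.5 with CDAA and 3.00 to 3.89 with Std. Its Std signals lay around or below the array median, so the size of its change is uncertain. The lists for cholangiocytes (4.55 to 5.69 with Std, 7.32 to 8.23 with CDAA, 6 of 6 rising, Epcam by 3.17 and Krt19 by 2.25) and for stellate cells and fibroblasts (6.03 to 6.60 and 6.96 to 8.32, 5 of 10 rising, Col1a1 by 3.43, Lrat at 0.53) also lay higher. With Std, Krt19 was at 3.24 to 4.30 and Epcam at 3.51 to 5.75, partly below the array median, so the sizes of their rises are uncertain. Hepatocyte markers spanned 6.64 to 7.18 with Std and 6.62 to 7.54 with CDAA, with a median change of -0.29; Alb rose by 1.28 and Ttr by 1.54, Cyp2e1 fell by 1.13 and Ass1 by 1.18 (Ttr, Cyp2e1 and Ass1 named after their values were seen), and Cps1, at 0.55, did not pass. Without CDAA 3, 4 of the 8 fell and 2 rose. Of 7 dendritic cell markers 1 fell, Zbtb46 by 0.86, and Flt3 (0.86) did not pass except without CDAA 4 (1.03) or the dimmest genes. Zbtb46 was lowest in CDAA 1 (6.36) and CDAA 3 (6.50), where the pan-endothelial mean was lowest as well. Which cells gave its signal was not tested. Std 3 stood apart by its neutrophil markers (9.79 against 4.52 to 5.06 in the other Std arrays and 6.15 to 6.98 with CDAA); none of the 5 neutrophil markers passed with all arrays, but 4 rose without Std 3. S100a8 differed by 1.46 with all arrays and rose by 2.64 without Std 3, where Ly6g (-0.77 with all arrays) was at 0.38. No marker of T and NK cells (Cd3e at -0.25 and Ncr1 at 0.30), B cells (Cd79a at 0.21) or platelets and megakaryocytes (Pf4 at 0.51 and Itga2b at -0.19) passed.

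Set beside these lists, the members differed in which arrays were high or low. Pros1 was lowest in CDAA 3 and CDAA 1 and highest of the CDAA arrays in CDAA 4, as was the pan-endothelial mean. Axl was highest in CDAA 3 and CDAA 1, as were the recruited macrophage and stellate cell means. The cholangiocyte, hepatocyte, neutrophil and dendritic cell means were also highest in these arrays among the CDAA arrays. Among Std arrays Axl ran in the order of the Kupffer cell mean, from Std 2 at the top to Std 4 at the bottom. With CDAA it did not, as the Kupffer cell mean was 7.60 in CDAA 1 and 7.70 in CDAA 2. Mertk did not follow the Kupffer cell mean among Std arrays: Std 4 had the highest Mertk (10.71) and the lowest Kupffer cell mean (8.44), and Std 2 the lowest Mertk (10.46) and the highest Kupffer cell mean (9.49). Nor did Mertk follow the pan-endothelial mean throughout the Std arrays. That mean was highest in Std 4 (11.49) but lowest in Std 3 (11.34), where Mertk was 10.69. The Std values of Mertk lay close together. Among CDAA arrays Mertk was highest in CDAA 4 (9.87), where the pan-endothelial mean was highest as well (11.13). Both were lowest in CDAA 1 and CDAA 3, at 9.55 and 9.58 for Mertk and 10.44 and 10.05 for that mean. The LSEC mean was likewise highest in CDAA 4 and lowest in CDAA 3 and CDAA 1. Mfge8 was at nearly the same signal in CDAA 3 (10.19) and CDAA 4 (10.21), which were at opposite ends of the endothelial, stellate and recruited macrophage means. The part of cell composition in these differences was not tested.

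**Figure D3:**
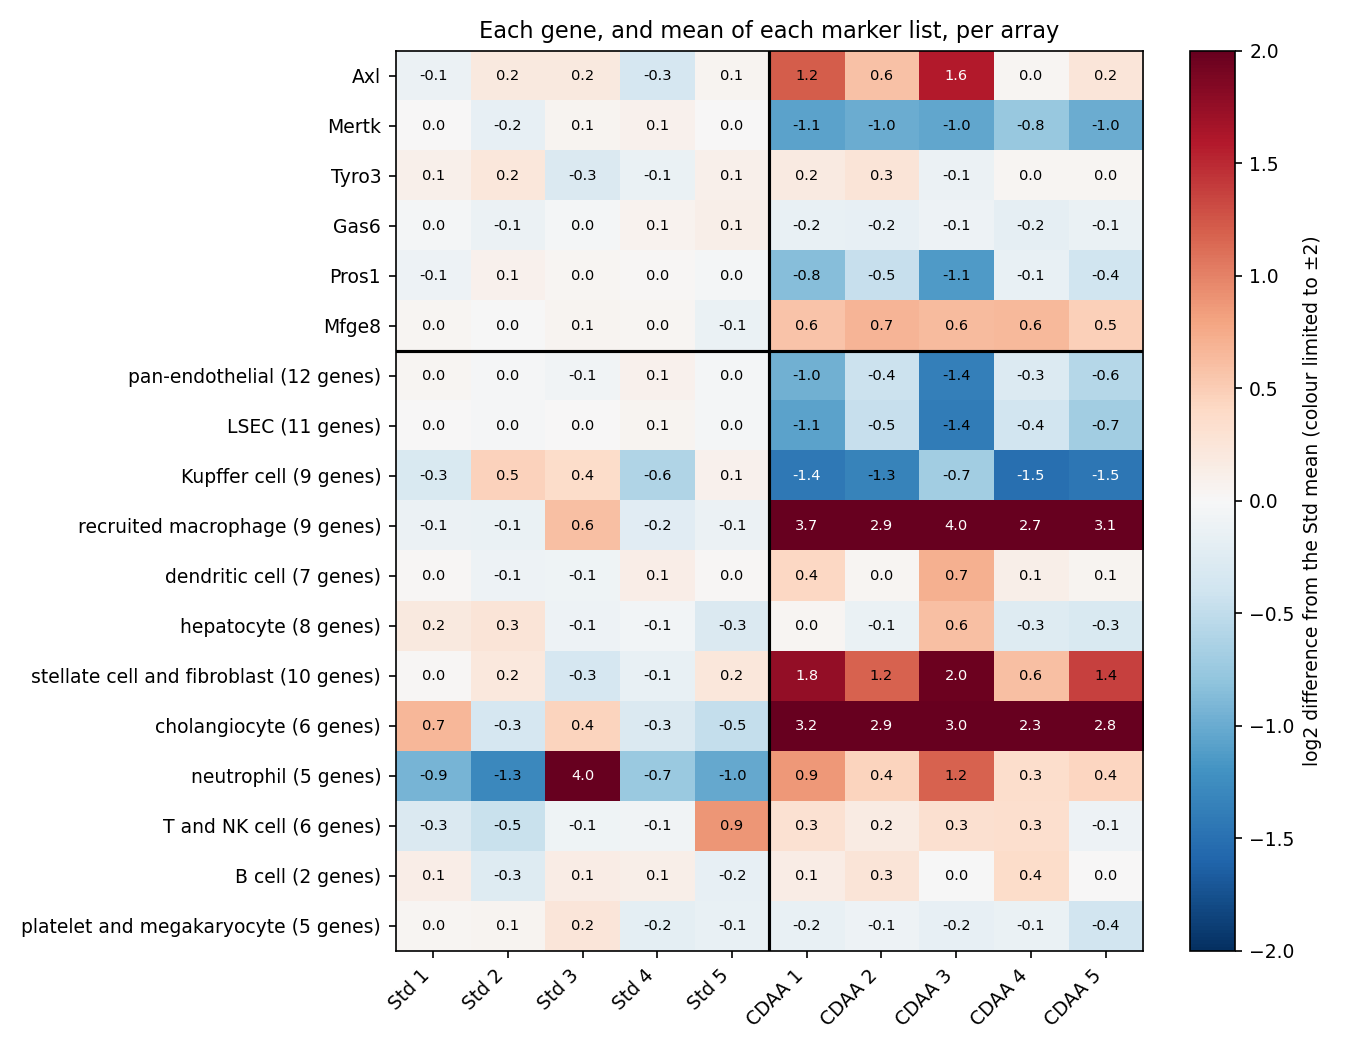
Difference of each gene's log2 signal, and of the mean log2 signal of each marker list, from its Std mean (colour and printed value) on every array (columns). Mertk is low in all 5 CDAA arrays, least so in CDAA 4, and Mfge8 is high in all 5, while Axl and Pros1 depart most in CDAA 1 and CDAA 3, as do the pan-endothelial and LSEC lists.

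The genes whose signal ran most like that of each changed member were found by the root mean square (RMS) difference between profiles over the 10 arrays, each gene centred on its own mean, among 19822 genes. For Mertk these were Mlxip (0.072), Sema4b (0.078), Ncoa3 (0.094), Abca7 (0.11) and Tinf2 (0.12), in log2 units, against a spread of Mertk itself of 0.50. Abca7 is a lipid transporter of phagocytes and Mlxip a glucose-responsive transcription factor. Pros1 ran most like Gimap6 (0.050), Mylip (0.059), Tmem9b (0.076), Cds2 (0.078) and Adcy4 (0.081), against its own spread of 0.39. For Mfge8 they were Jpt1 (0.081), Tnfrsf9 (0.090), Tgm2 (0.091), Plin3 (0.092) and Etfdh (0.098), against 0.31; Tgm2 encodes transglutaminase 2 and Plin3 a lipid droplet protein. Axl, which did not pass and was added after its values were seen, ran most like Tbxas1 (0.13), Fermt3 (0.15), Tlr7 (0.15), Pld4 (0.15) and Cd300a (0.16), against 0.57, genes known from myeloid and other blood cells.

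Other genes of efferocytosis were taken from 11 lists with 100 genes, of which 96 were measured and 4 are not analysed here. Of the 96, 24 rose and 20 fell, or 45.8% against 16.6% of all genes tested, with a median change of 0.10. Without CDAA 1 and CDAA 3 the counts were 18 and 15. The 16.6% includes dim genes, of which a smaller share passes, and the lists were chosen with earlier results of these data known. The gap between these shares is therefore not read as a result about efferocytosis genes as a set. Timd4, Marco, Stab2, Cx3cr1 and Pecam1 are also in the cell type marker lists.

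Phosphatidylserine receptors that need no bridge went both ways. Of 10, 3 fell and 1 rose. Timd4, the TIM-4 receptor of resident Kupffer cells, fell by 3.73 ± 0.24 (SE; limma adjusted p = 5.92e-06), with 3.32 to 4.67 in the CDAA arrays and 7.49 to 8.31 in the Std arrays. The CDAA signals of Timd4 lay around the array median, so the size of its fall is uncertain. Havcr2, the TIM-3 receptor, rose by 1.01, from 3.02 to 3.95 in Std to 4.07 to 5.03 in CDAA, signals near the array median. The endothelial receptors Stab1 and Stab2, which also take up apoptotic cells, fell by 0.81 and 0.89; Stab1, like the other integrin, bridge and protease genes so marked below, was named after its values were seen.

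Tethering integrins and scavenger receptors held the largest share of changed genes among the 11 lists, with 6 rising and 4 falling of 12. The integrin chains that recognise MFG-E8 are alpha-v paired with beta-3 or beta-5. Itgav, encoding alpha-v, rose by 1.49 ± 0.15 (SE; limma adjusted p = 9.52e-05), from 7.57 ± 0.10 to 9.07 ± 0.36 (SD, n = 5 per diet), and Itgb5, encoding beta-5, by 1.88 ± 0.29, from 7.62 to 9.50 (both named after their values were seen). Itgb3, also so chosen, was at 7.60 with Std and 6.99 with CDAA, which is a change of -0.62 (limma adjusted p = 0.0811), past the threshold only without CDAA 4 (-0.78) among single arrays left out. Cd14, a lipopolysaccharide co-receptor that also tethers apoptotic cells, rose by 1.93 ± 0.43, but Std 3 (8.48) lay within the CDAA range and the call was lost without CDAA 1 and CDAA 3 (1.46). Marco, a scavenger receptor of resident macrophages, fell by 1.88.

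Among 15 other bridging molecules and eat-me signals 3 rose and 1 fell. Lgals3, galectin-3, a bridge for Mertk, rose by 2.62 ± 0.36 (SE; limma adjusted p = 0.000565), and Thbs1, thrombospondin-1, which links dying cells to integrins and CD36, by 2.16. The complement bridge genes C1qa, C1qb and C1qc, named after their values were seen, differed by 0.79, 0.69 and 0.68 and did not pass with all arrays; each passed without CDAA 4 (0.99, 0.83 and 0.85). Within the engulfment machinery 2 of 11 fell and none rose, a share near the 16.6% of all genes: Rubcn, which directs LC3-associated phagocytosis, by 0.51, and the Rac activator Dock1 by 0.47. Neither passed without CDAA 1 and CDAA 3 (-0.40 and -0.30), and Dock1 also lost its call without CDAA 1, CDAA 3, Std 1, Std 2 or Std 4 (-0.49 to -0.37). In this list none passed without CDAA 1 and CDAA 3, 2 rose and 3 fell without Std 3, and 1 rose and none fell without all 3 arrays, so it has no settled direction.

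Find-me signals and their receptors gave 5 rises and 1 fall of 9, led by the fractalkine receptor Cx3cr1, up by 2.55, and the nucleotide receptor P2ry6, up by 1.28. P2ry6 did not pass without CDAA 1, Std 1, Std 4 or Std 5 (1.15 to 1.26), and 2 genes of this list passed without CDAA 1 or without Std 4 and 3 without Std 1. Of 6 do-not-eat-me genes 2 rose and 1 fell. Cd24a, which encodes the CD24 surface signal and also marks biliary epithelium, rose by 2.72, and Sirpa, the phagocyte receptor of CD47, by 0.70, while Cd47 itself, named after its values were seen, fell by 0.56; 5 of the list passed without CDAA 4. Of 7 genes listed as phosphatidylserine scramblases and flippases, named for moving this lipid across the membrane, 2 fell and 1 rose. The caspase-activated scramblase Xkr8 fell by 0.85, and Plscr1 rose by 0.84. Movement of the lipid was not measured. Plscr1 lost its call without any array except CDAA 3, CDAA 4 or Std 3 (0.62 to 0.89). With Std it was at 3.34 to 4.85, partly below the array median, so the size of its rise is uncertain.

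The last 4 lists hold genes that act on TAM receptors, on their ligands or after engulfment. Of 8 for shedding and feedback, Socs1, a suppressor of cytokine signalling induced through TAM receptors, fell by 0.94 ± 0.18 (SE; limma adjusted p = 0.00362) and Rhbdf1, an iRhom that carries the protease ADAM17, rose by 0.42, the latter not without CDAA 1 and CDAA 3 (0.37). Adam17 and Adam10, proteases that shed Axl and Mertk, differed by 0.27 and 0.11 and did not pass; both were named after their values were seen. Of 5 vitamin K cycle genes 2 fell and none rose: Ggcx, the gamma-carboxylase that modifies Gas6 and protein S, by 0.75 ± 0.13 (SE; limma adjusted p = 0.00210), with CDAA arrays at 7.17 to 7.79 and Std arrays at 8.07 to 8.34, and the quinone reductase Nqo1 by 0.85, which did not pass without CDAA 1 and CDAA 3 (-0.59). Of 6 other plasma Gla proteins, usually made by hepatocytes, 3 rose and 1 fell: Proc, protein C, whose cofactor is protein S, rose by 1.99 and the coagulation factor gene F7 by 1.37. With Std, F7 was at 4.17 to 4.46, not far above the array median, so the size of its rise is uncertain. Among 7 nuclear receptors and lipid efflux genes that act after engulfment 2 rose and 2 fell, with Pparg up by 1.06 and the cholesterol exporter Abca1 by 1.46.

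**Figure D4:**
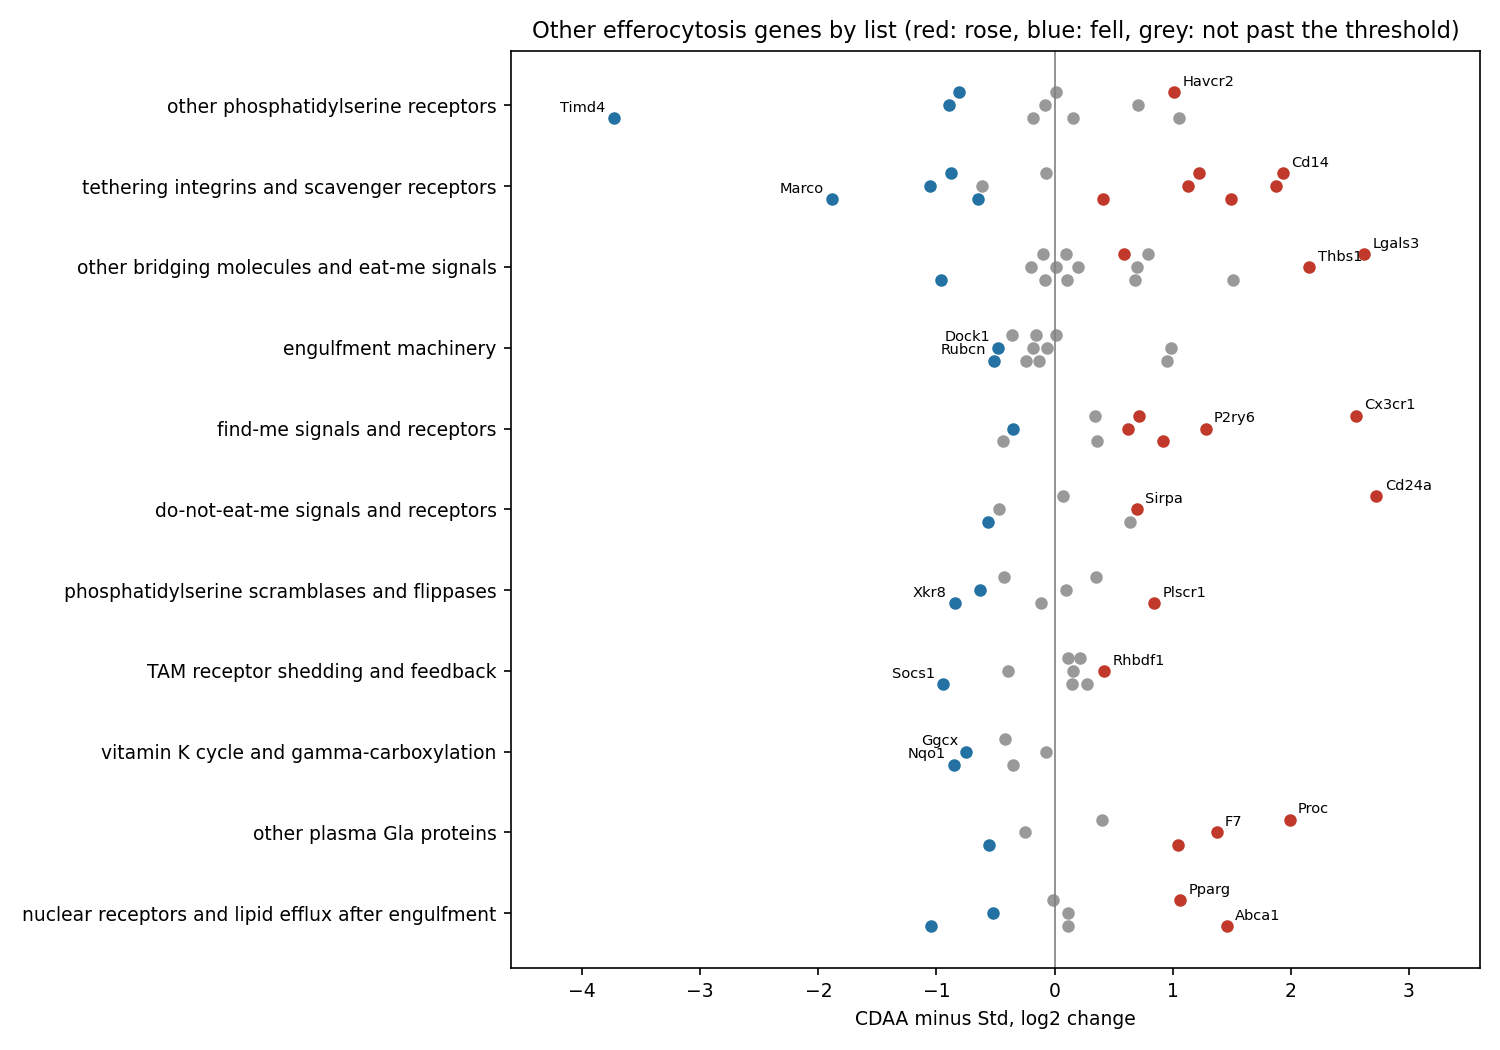
Change of each of the 96 other efferocytosis genes (points, x axis in log2 units) by list (rows, points staggered for legibility), with red for genes that rose, blue for genes that fell and grey for the rest; the genes named by rule are labelled. Among genes past the threshold both directions occur in 9 of the 11 lists with all arrays.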

How the data were processed

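The deposited values are log2 signals of 25428 probe sets on 10 arrays. The authors used RMA (robust multi-array averaging, no version given), per the submitters' processing notes. RMA corrects background and brings all arrays to one distribution, so a change is relative to the other genes; the deposited arrays differ by at most 0.0019 at equal rank. Array design, build and scan batches are not given in the sources used here. The platform annotation named 24705 probe sets with 1 symbol and left 723 unnamed here; for the 1 gene with 2 or more, the probe set with the highest mean was kept.

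In R 4.3.3, limma 3.58.1 (lmFit, then eBayes) compared CDAA with Std two-sidedly; p-values were adjusted by Benjamini-Hochberg over 24704 genes. The labels call the arrays biological replicates; p-values measure the spread between pools. For arrays, their number limits the precision. The procedure was tested on simulated data with 200 changed genes and recovered 6.5% of changes of 0.5, 84% of changes of 1 and 100% of changes of 2. False calls numbered 0, 8 and 7. The simulated share of changed genes was well below the 16.6% called here, and noise was independent between genes. These rates therefore need not hold for the real comparison. Pair tests used scipy 1.17.1.

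The members and lists were chosen with earlier results of these data known. The text names all 6 genes, for each pathway list the 2 genes past the threshold that changed most, the 5 nearest profiles of each changed member (without predicted genes, microRNAs and snoRNAs), and the defining markers; others are marked. Alternatives were a replicate block, quantile normalization, median centring, 2 filters on dim genes, array weights, robust variance with an intensity trend, and leaving out arrays; the fit without CDAA 1, CDAA 3 and Std 3 was added after seeing the data.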

Additional observations from a re-analysis of the deposited data

Results flagged for a closer look

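Of 128 groups of 5 arrays examined for 64 named genes, 8 had an array set off from its nearest neighbour by over 0.71 of the range (Dixon's limit for 5 values); chance gives this in about 1 group in 20. Mertk was 9.87 in CDAA 4 against 9.55 to 9.64 in the other CDAA arrays. In Std 3, Cd24a was 8.45 against 5.57 to 6.27 in the other Std arrays, S100a8 was 11.7 against 5.39 to 6.04, Ly6g was 8.51 against 2.56 to 2.86, and Itgb3 was 8.38 against 7.21 to 7.54. Itgb3 was also 7.62 in CDAA 4, against 6.74 to 6.91 in the other CDAA arrays. Vsig4 was 9.62 in CDAA 3 against 8.54 to 8.70. Clec4g was 13.26 in Std 2, where the other Std arrays all read 13.32; it ranked 4 from the top in Std 2 and 3 in the others, and the tie follows from the shared value of each rank, so this marks no outlying array.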

How the results depend on the processing

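Mertk, Mfge8, Tyro3 and Gas6 kept their direction and their side of the threshold under all alternatives in which they were fitted (19, and 18 for Tyro3), with limma adjusted p from 0.532 to 0.988 for Tyro3 and 0.177 to 0.450 for Gas6. The count of changed members was 2 to 4. With single arrays left out, Axl ranged from 0.52 to 0.90 and Pros1 from -0.71 to -0.46, and the count over all genes from 2956 to 4572. Without CDAA 1 and CDAA 3, 2612 genes passed and Pros1 was at -0.34; without these and Std 3, 2689 genes passed and Pros1 was at -0.33, both short of the threshold. In the latter fit Cps1 (-0.058), Lrat (-0.15) and Ly6g (0.34) took the other sign without passing; with single arrays left out Ly6g ranged from -1.11 to 0.38, the positive value being without Std 3.

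The labels do not state whether replicate numbers pair the arrays, and the values did not settle it. Deviations of same-numbered arrays from their group means correlated weakly, at 0.016 to 0.25, but 3 of 5 CDAA arrays matched their own number best. The block was therefore kept as an alternative. With a replicate block 4178 genes passed against 4106, and Axl passed at 0.73 (limma adjusted p = 0.0363), as did C1qa, C1qb and C1qc, while Plscr1 did not (limma adjusted p = 0.0796). The block moved the calls from 4 to 8 among the other bridging molecules and from 2 to 4 in the engulfment machinery.

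Pair differences without CDAA 1 and CDAA 3 were 1.20 for Axl minus Mertk, -1.03 for Mertk minus Tyro3, -0.76 for Gas6 minus Mfge8 and -0.94 for Pros1 minus Mfge8, each with an adjusted exact permutation p of 0.0536, 0.18 for Gas6 minus Pros1 and 0.17 for Axl minus Tyro3 (adjusted exact permutation p = 0.357); the smaller number of arrays limits these p. With single arrays left out, Axl minus Tyro3 ranged from 0.39 to 0.82 and Gas6 minus Pros1 from 0.31 to 0.57. Other causes were not tested. Of 22 pathway genes named by rule, 15 kept their call under all alternatives and none changed direction. Signals near the array median, as for Tyro3, limit what a difference can show.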
